A study of Mus musculus with 16 samples.

Results

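H3K4me2, dimethylation of lysine 4 of histone H3, was compared between mTEC-IV and mTEC-II, which are 2 sorted populations of medullary thymic epithelial cells (mTEC) from the thymus of C57BL/6 mice. These 4 libraries, 2 of each population, were chosen by the population that the labels give them, out of 8 H3K4me2 libraries in a series of 16 samples. Both populations were sorted from enzyme-digested thymus as CD45-negative and Epcam-positive cells. The mTEC-II gate took cells high in MHC class II. The mTEC-IV gate took cells low in MHC class II, negative for Itgb4 and positive for L1cam. Cells were fixed with formaldehyde after staining, and chromatin was precipitated with a monoclonal anti-H3K4me2 antibody by a high-throughput ChIP derived from iChIP. The labels give no treatment, transgene or age, and they call the cells enriched for each population, so other cells may be present. The 2 H3K4me2 libraries each of mTEC-I and mTEC-III entered the fit and are used as reference levels, while the 8 samples of input chromatin (whole-cell extract) were left aside.

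H3K4me2 marks promoters and enhancers, including enhancers that are poised rather than active, so a change in the mark is not a measure of transcription. Medullary thymic epithelial cells display antigens that belong to other organs to T cells maturing in the thymus. The MHC class II high stage is the one known for Aire, the regulator that drives much of this expression. Tuft cells are chemosensory epithelial cells of mucosal surfaces that use the taste cascade: a receptor activates a G protein, a phospholipase releases calcium, and calcium opens the channel Trpm5. They depend on the transcription factor Pou2f3, make the cytokine Il25 and lipid mediators, and are known in the thymic medulla too.

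The mTEC-IV libraries held 9093698 and 8369277 tags and the mTEC-II libraries 15412132.5 and 13504742.5, of which 34.9% and 35.4%, and 31.9% and 32.2%, lay in the merged peaks. A level below is the deposited signal in tags per 10000000 tags of the library, and the level of a gene is the sum over all peaks that the file assigns to its start site. Distances and annotations of peaks refer to the peak centre. A change is the difference mTEC-IV minus mTEC-II on the log2(level + 1) scale with its standard error (SE), from limma fitted to all 8 libraries. A peak or gene is called where the Benjamini-Hochberg adjusted p is under 0.05, and only called ones are said to be higher or lower. Whether both libraries of a population came from different animals is not labelled, so a p-value here reflects only how far these libraries scatter, and that scatter may be technical. In sorted bulk samples, fewer cells carrying the mark and less mark per cell cannot be told apart.

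H3K4me2 differed at 8869 of 29469 merged peaks (30.1%). It was higher in mTEC-IV at 5133 peaks (17.4%) and lower at 3736 (12.7%). Summed by gene, 2585 of 15738 genes (16.4%) were higher and 1484 (9.43%) lower. Differences of at least 4-fold were found for 307 higher genes (1.95%) and 158 lower ones (1%). At every called peak and gene the 2 mTEC-IV libraries lay on 1 side of the 2 mTEC-II libraries. This adds no support to the calls, since genes not called, such as Itgb4 and Itpr3, showed it too. Its share over all peaks or genes was not counted. The median change over all genes was 0.08. It was -0.06 when the libraries were scaled to equal totals over the peaks, and the split then turned, with 4146 peaks higher and 4908 lower, and 1844 genes higher and 2443 lower. Cyclic loess gave 3149 peaks higher and 4702 lower, and TMM factors gave 2145 genes higher and 1951 lower. With any 1 of the 4 libraries left out 2413 to 2709 peaks were higher and 1885 to 2504 lower, and 1556 to 1633 genes higher and 811 to 973 lower. Changes below are on the authors' scale and are read against the median of 0.08. Counts of listed genes are read against the shares of 16.4% higher and 9.43% lower over all genes. The lists were chosen with earlier results of these data known, so their counts are descriptions and give no independent support.

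Genes of the sort gates were examined first. L1cam, the adhesion molecule of the mTEC-IV gate, had levels of 181 and 200 in mTEC-IV and 62.3 and 57.4 in mTEC-II, a change of 1.66 ± 0.22 (SE, limma adjusted p = 3.2e-05). The class II chain gene H2-Ab1 had 397 and 367 against 607 and 649, a change of -0.71 ± 0.08. H2-Aa changed by -0.73 ± 0.10 and H2-Eb1 by -0.52 ± 0.07. Itgb4, which encodes a laminin-binding integrin subunit, stood at 225 and 224 in mTEC-IV and 242 and 240 in mTEC-II and was not called (limma adjusted p = 0.57). Both gates required Epcam, which was higher in mTEC-IV by 0.38 ± 0.08. Both gates also excluded CD45, yet its gene Ptprc carried 269 and 265 in mTEC-IV against 38.9 and 48.9 in mTEC-II, a change of 2.59 ± 0.22 (limma adjusted p = 2.7e-07). The mTEC-IV libraries therefore lay on the labelled side for L1cam and MHC class II, and above mTEC-II at the gene of an antigen that was sorted against.

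**Figure D1:**
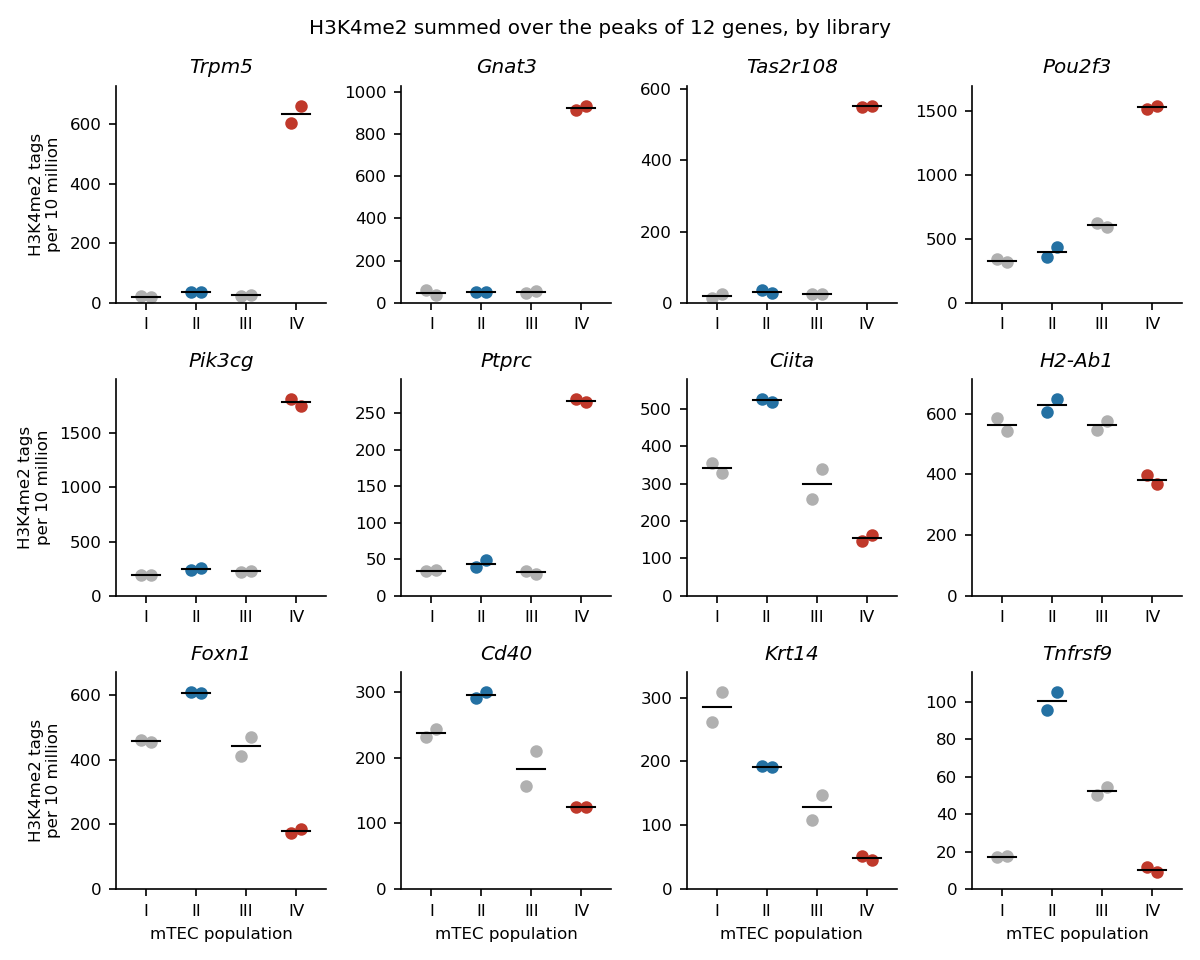
H3K4me2 of 12 genes (tags per 10000000, summed over the peaks of the gene) in each of the 8 libraries, by mTEC population, with mTEC-IV in red, mTEC-II in blue and the other 2 populations in grey. Points are libraries and lines are means of 2. Trpm5, Gnat3, Tas2r108, Pou2f3, Pik3cg and Ptprc stood highest in mTEC-IV, and Ciita, H2-Ab1, Foxn1, Cd40, Krt14 and Tnfrsf9 lowest.

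Promoter sequences are shown for 3 genes that the results below turn on: a bitter taste receptor, the taste G protein, and a basal keratin with the opposite change. Each has a called peak within 1 kb of its start site. The 250 bases before the start site are given from RefSeq for build GRCm38.p6, 5′ to 3′ on the strand of the gene. Capitals mark matches to any of 8 motifs searched on both strands: the octamer ATGCAAAT of POU factors, the Y box CTGATTGG of MHC class II promoters, the NF-kappaB motif, the interferon response element, the grainyhead motif AACCNGTT, the RUNX motif TGTGGTT, the E box CAGCTG and the ETS motif CCGGAAGT.
Tas2r108 promoter, chr6:40493342-40493591, plus strand: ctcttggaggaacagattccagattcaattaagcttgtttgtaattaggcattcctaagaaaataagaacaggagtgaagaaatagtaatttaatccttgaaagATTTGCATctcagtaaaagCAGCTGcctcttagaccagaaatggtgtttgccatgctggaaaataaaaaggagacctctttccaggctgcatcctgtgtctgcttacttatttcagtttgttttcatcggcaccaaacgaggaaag
Gnat3 promoter, chr5:17962320-17962569, plus strand: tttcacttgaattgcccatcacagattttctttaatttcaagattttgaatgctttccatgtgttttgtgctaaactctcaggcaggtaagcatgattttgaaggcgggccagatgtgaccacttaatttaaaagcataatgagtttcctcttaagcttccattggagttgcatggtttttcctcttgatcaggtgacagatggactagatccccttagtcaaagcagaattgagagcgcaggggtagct
Krt14 promoter, chr11:100206031-100206280, minus strand: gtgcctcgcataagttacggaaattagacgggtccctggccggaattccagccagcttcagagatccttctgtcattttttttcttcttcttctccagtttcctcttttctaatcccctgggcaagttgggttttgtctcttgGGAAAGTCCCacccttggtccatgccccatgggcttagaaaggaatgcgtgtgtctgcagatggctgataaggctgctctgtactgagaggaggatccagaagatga
In the Tas2r108 sequence the capitals are an octamer, read on the opposite strand, and an E box. The Krt14 sequence holds an NF-kappaB match on the opposite strand, and the Gnat3 sequence holds none of the 8. The promoters of Tas2r115, Krt8 and Calhm1, searched as well and not shown, held none either. A match is a run of letters, not evidence that a factor binds. The start-site peak of Tas2r108 had levels of 549 and 554 in mTEC-IV and 34.4 and 28.1 in mTEC-II. That of Gnat3 had 181 and 207 against 8.43 and 7.40, and that of Krt14 had 52.2 and 44.8 against 192 and 191. The peaks are in build mm9, and their coordinates were not converted.

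The factor that specifies tuft cells, Pou2f3, had levels of 1515 and 1542 in mTEC-IV and 361 and 436 in mTEC-II, a change of 1.94 ± 0.09 (limma adjusted p = 1.1e-09). Its mTEC-IV libraries stood above all others, with mTEC-III next at 626 and 596. Of 13 tuft transcription factors 9 were higher and none lower, with a median change of 0.51. Runx1, a factor shared with blood cells, had 1653 and 1678 against 698 and 744, a change of 1.21. Ascl2, a basic helix-loop-helix factor known from intestinal stem cells, had 304 and 321 against 104 and 103, a change of 1.59. Gfi1b, a zinc-finger repressor of blood and tuft cells, changed by 1.34, Hivep3 by 1.097 and Nfatc1, the calcineurin-regulated factor, by 0.52. Spib, an ETS factor of lymphoid and microfold cells, changed by 0.51. The transcription factor genes were thus mostly marked in mTEC-II as well, with differences of up to 3.84-fold in the mean level.

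The taste cascade showed larger differences from lower levels in mTEC-II. Of its 10 genes with a peak 9 were higher, with a median change of 3.16, and 8 were higher with any 1 of the 4 libraries left out. Gnat3, the gustducin alpha subunit, had 915 and 935 in mTEC-IV and 52.2 and 50.3 in mTEC-II, a change of 4.15 ± 0.21. Its partners Gnb3 and Gng13, the beta and gamma subunits, changed by 2.41 ± 0.22 and 1.18 ± 0.22. Plcb2, the phospholipase of the cascade, had 600 and 651 against 52.9 and 60.4, a change of 3.45. Itpr3, the calcium release channel that follows it, was not called, with 304 and 307 against 303 and 290. Trpm5, the cation channel that depolarizes the cell, had 603 and 662 against 37.3 and 34.4, a change of 4.10 ± 0.22 (limma adjusted p = 3.0e-09). Calhm1, a subunit of the channel through which taste cells release ATP, changed by 2.88. Rgs13, a regulator of G protein signalling, had 1074 and 1025 against 61.3 and 62.2, a change of 4.06. Tas1r3, a subunit of the sweet and umami receptors, had 463 and 460 against 31.8 and 29.99, a change of 3.86. At these 8 called genes the mTEC-II levels lay between 29.99 and 91.8, and those of mTEC-I and mTEC-III between 9.28 and 88.1, all below mTEC-IV. Rgs21, called as well, stood at 7.14 or less outside mTEC-IV, so it entered the fit only through mTEC-IV. Tas1r1, Tas1r2 and Calhm3 of the list had no merged peak.

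Bitter taste receptors, the Tas2r family that feeds into the same cascade, were higher at 18 of 20 genes with a merged peak. Their median change was 3.77 against 0.08 over all genes. Between 16 and 18 were called with 1 of the 4 libraries left out. Tas2r115 had 604 and 596 in mTEC-IV and 30.5 and 31.5 in mTEC-II, Tas2r136 had 321 and 312 against 22.7 and 17.4, and Tas2r118 had 286 and 275 against 20.1 and 21.1. Their changes were 4.23, 3.92 and 3.70, and that of Tas2r108 was 4.10. The 2 genes not called were Tas2r119, with a change of 0.45, and Tas2r143, with -0.25. Some called members, such as Tas2r106, Tas2r109 and Tas2r116, stayed below 10 in every library outside mTEC-IV. They entered the fit only through mTEC-IV, so their direction was fixed beforehand. Receptor genes lie in clusters and resemble each other, and the counting of reads shared between copies is not stated, so the single members are uncertain. Summed over the 20 genes, levels were 4195 and 4087 in mTEC-IV and 414 and 409 in mTEC-II.

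Among 16 tuft effectors with a peak 15 were higher and none lower, with a median change of 2.28. Chat and Kctd12 of the list had no merged peak. Siglecf, a sialic acid-binding lectin of eosinophils and tuft cells, had 149 and 188 in mTEC-IV and 6.16 and 4.44 in mTEC-II. Its mean was 31.8-fold higher, the largest ratio among the 24 genes chosen for large changes. Siglecf stood at 8.81 or less in every library outside mTEC-IV, so it entered the fit only through mTEC-IV. Lrmp, a tuft cell marker, had 1332 and 1310 against 118 and 123, a change of 3.44 ± 0.15 (limma adjusted p = 4.7e-10). Avil, an actin-bundling protein of tuft cells, changed by 3.43, the kinase gene Dclk1 by 1.45 and the Tec family kinase gene Bmx by 2.73. The enzymes of lipid mediators were higher together: Alox5 and Alox5ap of leukotriene synthesis by 2.64 and 1.601, and Ptgs1 and Hpgds of prostaglandin synthesis by 1.89 and 1.59. Il25, the tuft cell cytokine, had 144 and 143 against 16.9 and 20.4, a change of 2.88, and its receptor gene Il17rb changed by 1.66. These 2 were picked after their values were seen. Vil1, encoding villin of microvilli, was the member not called, with 106 and 89.0 against 32.8 and 37.4 (limma adjusted p = 0.13). Without the shallow mTEC-I replicate 2, which adds to the shared estimate of the spread, that adjusted p was 1.6e-05.

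Genes of blood-cell signalling that tuft cells share were higher at 9 of 12, Ptprc among them, with a median change of 1.504. This list too was chosen with earlier results of these data known. Pik3cg, the catalytic subunit of phosphoinositide 3-kinase gamma, had 1817 and 1753 in mTEC-IV and 243 and 255 in mTEC-II over 8 peaks, a change of 2.84 ± 0.09 (limma adjusted p = 9.9e-12). Its regulatory partner Pik3r5 had 637 and 799 against 128 and 137, a change of 2.42. The phosphatase genes Ptpn6 and Inpp5d changed by 1.47 and 2.07. Vav1, an exchange factor, changed by 1.54, Plcg2, a phospholipase, by 1.37 and Fyb, an adaptor, by 1.32. At Fyb and Plcg2 the peaks within 1 kb of the start site gave changes of 0.05 and 0.17, so the difference lay in their more distant peaks.

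Markers of other cell types were set beside these blood-type genes, although the CD45-negative, Epcam-positive gate of both populations is meant to remove thymocytes, B cells, myeloid cells and mast cells. Of 16 thymocyte genes 12 had no merged peak, among them Cd3e, Cd4, Cd8a, Lck and Rag1. The 4 with a peak summed to 1317 and 1369 in mTEC-IV and 1484 and 1502 in mTEC-II. Of 12 B cell genes 7 had no peak, among them Ms4a1. However, Cd79a, a signalling chain of the B cell receptor, had 57.7 and 77.1 against 9.73 and 8.15, a change of 2.77, and Cd79b 123 and 125 against 44.1 and 52.6, a change of 1.35. Of 16 myeloid and dendritic cell genes 8 had no peak, among them Spi1 and Lyz2. The 8 measured summed to 762 and 761 in mTEC-IV against 793 and 744, with Csf1r called lower and 3 called lower without mTEC-I replicate 2. Of 10 mast cell and basophil genes 7 had no peak, among them Cpa3 and Fcer1a, and Kit, a receptor kinase, changed by 1.06. Of the 3 measured genes 2 were higher, or 1 with any 1 of the 4 libraries left out. Thymocyte genes gave 1 call each way, Cd2 with -1.09 and Themis with 1.15. The call of Cd2 ended without mTEC-IV replicate 1 (limma adjusted p = 0.10) or mTEC-II replicate 2 (0.23), and that of Themis without any 1 of the 4 libraries (0.0997 to 0.17). That of Csf1r ended without mTEC-IV replicate 2 (limma adjusted p = 0.34), mTEC-II replicate 1 (0.20) or mTEC-II replicate 2 (0.16).

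Endothelial genes were in part higher in mTEC-IV, and fibroblast genes went both ways. The shares over all genes were 16.4% higher and 9.43% lower. Of 11 endothelial genes with a peak 4 were higher and none lower. Tek, an angiopoietin receptor, had 416 and 398 against 118 and 97.8, a change of 1.91, and Cdh5, the endothelial cadherin, had 103 and 124 against 20.4 and 14.8, a change of 2.63. Emcn changed by 1.91 and Esam by 0.51. Pecam1, Kdr, Erg, Sox17, Egfl7, Flt1 and Robo4 were not called, with changes of -0.32 to 0.25, and Tie1 had no peak. Over the list levels summed to 2599 and 2529 in mTEC-IV and 1862 and 1874 in mTEC-II. Of 10 fibroblast genes with a peak 1 was higher, Pdgfrb with a change of 1.78, and 2 were lower, or 0 to 1 with any 1 of the 4 libraries left out. Without mTEC-I replicate 2 there were 2 higher. The Epcam-positive gate is meant to remove endothelial cells and fibroblasts too. The part of these cell types in the results was not tested.

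**Figure D2:**
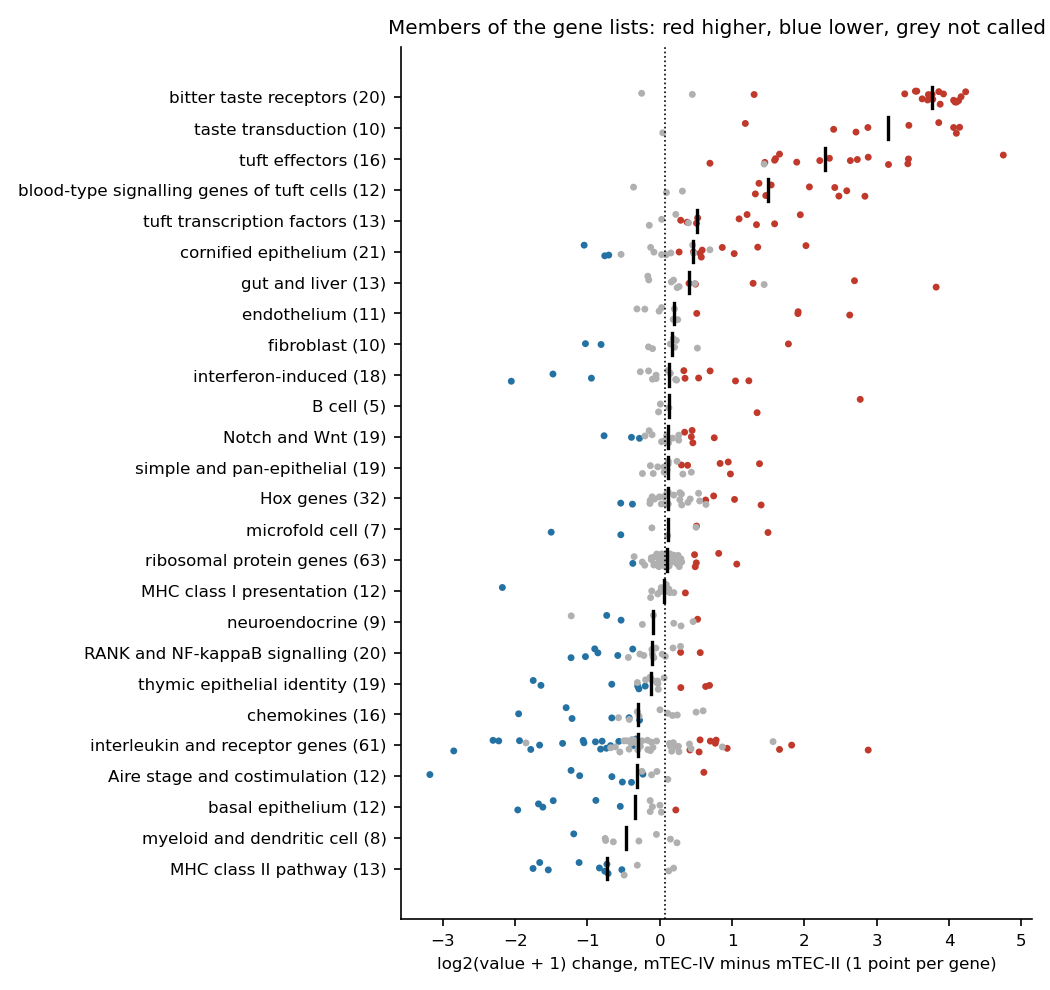
Change in H3K4me2 between mTEC-IV and mTEC-II, on the log2(level + 1) scale, for each gene of 26 lists with at least 5 measured members, with the number measured in brackets. Points are genes (red higher, blue lower, grey not called), black bars are list medians, and the dotted line is the median of all genes, 0.08. Medians run from -0.73 for the MHC class II pathway to 3.77 for bitter taste receptors.

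On the other side of the comparison stood antigen presentation. Ciita, the coactivator that switches on class II genes, had 147 and 162 in mTEC-IV and 527 and 519 in mTEC-II, a change of -1.75 ± 0.12 (limma adjusted p = 3.7e-08). Of 13 class II pathway genes with a peak 9 were lower and none higher, with a median change of -0.73. The gate separated the populations by MHC class II protein, so these genes are not independent of how the cells were chosen. H2-Eb2, a class II beta chain gene, had 97.3 and 112 against 315 and 349, a change of -1.66. Cd74, the invariant chain, had 179 and 149 against 337 and 374, a change of -1.12. The genes of the peptide-loading molecules H2-DMb2 and H2-Ob changed by -0.76 and -1.54. H2-Aa, H2-Ab1 and H2-Eb1 had levels of 241 to 702 in mTEC-IV. The mean level was 1.44-fold to 1.66-fold lower at those 3 genes and 3.38-fold lower at Ciita. The difference between these genes was not tested.

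MHC class I presentation stayed close to the median of all genes, with 1 of 12 genes higher, 1 lower and a median change of 0.06. Among all genes 16.4% were higher and 9.43% lower. Psmb9, a subunit of the immunoproteasome, had 5.50 and 8.96 against 44.5 and 28.1, and its call ended without mTEC-II replicate 1 (limma adjusted p = 0.056). B2m, the light chain of class I, was higher with 658 and 718 against 537 and 537, a change of 0.35. Its call ended without mTEC-IV replicate 2 (limma adjusted p = 0.10), mTEC-II replicate 1 (0.053) or mTEC-II replicate 2 (0.052), and with equal totals over the peaks (0.061).

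Of 12 genes of the Aire stage and costimulation with a peak 7 were lower and 1 higher, with a median change of -0.32. Tnfrsf9, a costimulatory receptor of the TNF receptor family, had 11.6 and 8.96 in mTEC-IV and 95.7 and 105 in mTEC-II, a change of -3.18 ± 0.30. Cd40, the receptor for the T cell ligand Cd40lg, had 125 and 125 against 290 and 300, a change of -1.23. Fezf2, a second regulator of tissue antigens in mTEC, changed by -0.39, and Pdcd1lg2, encoding PD-L2, by -0.66. Cd274, which encodes PD-L1, went the other way, with 1673 and 1704 against 1110 and 1103, a change of 0.61. No peak was assigned to Aire. The peak nearest to it, annotated within Aire but nearest to the start site of its neighbour Dnmt3l, had 97.9 and 99.2 against 212 and 215, a change of -1.11.

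RANK and NF-kappaB signalling, the route by which T cells and lymphoid cells mature mTEC, gave 6 lower and 2 higher of 20 genes, or 1 higher with any 1 of the 4 libraries left out. With equal totals or edgeR 10 were lower. Shares over all genes in the main fit were 9.43% lower and 16.4% higher. Birc2, a ubiquitin ligase of the pathway, had 553 and 499 against 959 and 944, a change of -0.86. Traf2 and Traf1, adaptors of TNF receptors, changed by -1.03 and -0.90, and Tnfaip3, an inhibitor of NF-kappaB, by 0.56. At Traf1 and Tnfaip3 the peaks within 1 kb of the start site changed by -0.22 and 0.04 and were not called.

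Foxn1, the factor that makes thymic epithelium, had 175 and 185 in mTEC-IV and 609 and 606 in mTEC-II, a change of -1.75 ± 0.09 (limma adjusted p = 2.9e-09). Its mTEC-I and mTEC-III libraries lay between 413 and 469, so mTEC-IV stood below all 6 others. Among 19 thymic identity genes 6 were lower and 3 higher, where 9.43% of all genes were lower and 16.4% higher. The median change of the list was -0.11. With any 1 of the 4 libraries left out 1 to 4 were lower and 1 to 2 higher, and 10 were lower with equal totals or edgeR. Eya1, a transcriptional coactivator of thymus formation, had 2110 and 2151 against 1301 and 1343, a change of 0.69. Psmb11, the thymoproteasome subunit of cortical epithelium, had 13.2 and 9.56 against 34.4 and 40.4, and its call ended without mTEC-IV replicate 2 (limma adjusted p = 0.057) or mTEC-II replicate 2 (0.084).

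Keratin genes of the basal and simple lists were called in different directions. Of the basal keratins Krt14 changed by -1.96 ± 0.17, and Krt5 had 33.0 and 26.3 against 99.9 and 85.5, a change of -1.62. Of the simple-epithelium keratins Krt8 had 1108 and 1198 against 563 and 608, a change of 0.98, Krt18 changed by 0.83 and Krt19 by 0.95. Krt23 changed by 1.38. Krt7, another simple keratin, was not called, with a change of -0.24, but was called lower with equal totals (-0.37, limma adjusted p = 0.011). Krt15 and Krt20 had no peak. Of 12 basal genes 6 were lower and 1 higher, and 5 to 6 lower and 0 higher with any 1 of the 4 libraries left out. Lamb3, a laminin chain, changed by -1.68, Col17a1, a hemidesmosomal collagen, by -1.47 and Pdpn, encoding podoplanin, by -0.88. Of 19 simple and pan-epithelial genes 6 were higher and none lower, with a median change of 0.12. With equal totals over the peaks that median was -0.01, with 5 higher and 2 lower.

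Genes of the cornified layers went both ways, with 9 of 21 higher, 3 lower and a median change of 0.45. Ehf and Elf3, ETS factors of epithelia, changed by 1.36 and 0.86, and Klf4, a factor of the skin barrier, had 1838 and 1884 against 915 and 907, a change of 1.03. Dsg3, a desmosomal cadherin, changed by 2.02, but the desmosomal Dsc3 by -0.76. Spink5, a protease inhibitor of the skin, had 57.7 and 52.0 against 116 and 113, a change of -1.05, and its mTEC-III libraries stood far above both at 573 and 551. With any 1 of the 4 libraries left out 6 to 7 of the list were higher.

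Of 13 gut and liver genes 5 were higher and none lower, against 2 to 3 with any 1 of the 4 libraries left out and 9 without mTEC-I replicate 2. Fabp1, a fatty acid-binding protein of liver and intestine, had 233 and 282 against 20.4 and 14.4, a change of 3.82. Cps1, the first enzyme of the urea cycle, changed by 1.29. Of the neuroendocrine factors Isl1 had 814 and 808 against 1372 and 1328, a change of -0.73, and Insm1 changed by -0.54. Of 9 such genes 2 were lower and 1 higher. With any 1 of the 4 libraries left out 2 to 3 were lower and none higher, and without mTEC-I replicate 2 the counts were 4 lower and 3 higher. Among 7 microfold cell genes 2 were higher and 2 lower, with Sox8 at 1.497 and Aif1 at -1.502. Of 32 Hox genes 4 were higher and 2 lower, or 1 to 2 higher and 1 lower with any 1 of the 4 libraries left out and 9 higher without mTEC-I replicate 2. Shares of 16.4% higher and 9.43% lower over all genes stand beside these small counts. Hoxa4 had 308 and 322 against 152 and 154, a change of 1.03.

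Cytokine loci differed in both directions. Il10, an anti-inflammatory cytokine, had 669 and 703 in mTEC-IV and 189 and 197 in mTEC-II, a change of 1.82 ± 0.14. Il2, the T cell growth factor, had 13.2 and 16.7 against 68.1 and 78.9, a change of -2.23, and Il12a, a chain of interleukin 12, changed by -1.05. Il27 had 4.40 and 4.18 against 39.6 and 34.8, a change of -2.85. Il4i1, an amino acid oxidase known from mature mTEC, had 120 and 147 against 433 and 414, a change of -1.66. The receptor genes Il20rb and Il15ra changed by -0.89 and -0.57. Over the 61 interleukin and receptor genes 10 were higher and 18 lower, with a median of -0.30, and 6 to 7 were higher and 11 to 15 lower with any 1 of the 4 libraries left out. With edgeR 30 were lower. Il27 was picked after its values were seen.

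Of 16 chemokine genes 6 were lower and none higher, or 3 to 4 lower with any 1 of the 4 libraries left out. Cxcl11, an interferon-induced ligand of Cxcr3, had 33.0 and 28.7 against 128 and 116, a change of -1.95, and Ccl27a changed by -1.21. Interferon-induced genes gave 6 higher and 3 lower of 18, and 3 to 4 higher and 3 lower with any 1 of the 4 libraries left out. With equal totals the balance turned, with 4 higher and 5 lower. Mx1, an antiviral GTPase, had 40.7 and 41.8 against 169 and 180, a change of -2.05, and Ifit3 changed by -1.48. Irf9, the interferon-activated factor, and Rsad2, an antiviral enzyme, changed by 1.05 and 1.23. Of 19 Notch and Wnt genes 5 were higher and 3 lower, or 3 to 4 higher and 1 to 2 lower with any 1 of the 4 libraries left out. Here too the balance turned with equal totals, with 3 higher and 5 lower. Lgr5, a receptor of stem cells, changed by 0.75 and the ligand gene Wnt4 by -0.77. Ribosomal protein genes, set as a reference, gave 5 higher and 1 lower of 63 with a median of 0.10. For all genes the shares were 16.4% higher and 9.43% lower, and several of these lists lie near them.

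**Figure D3:**
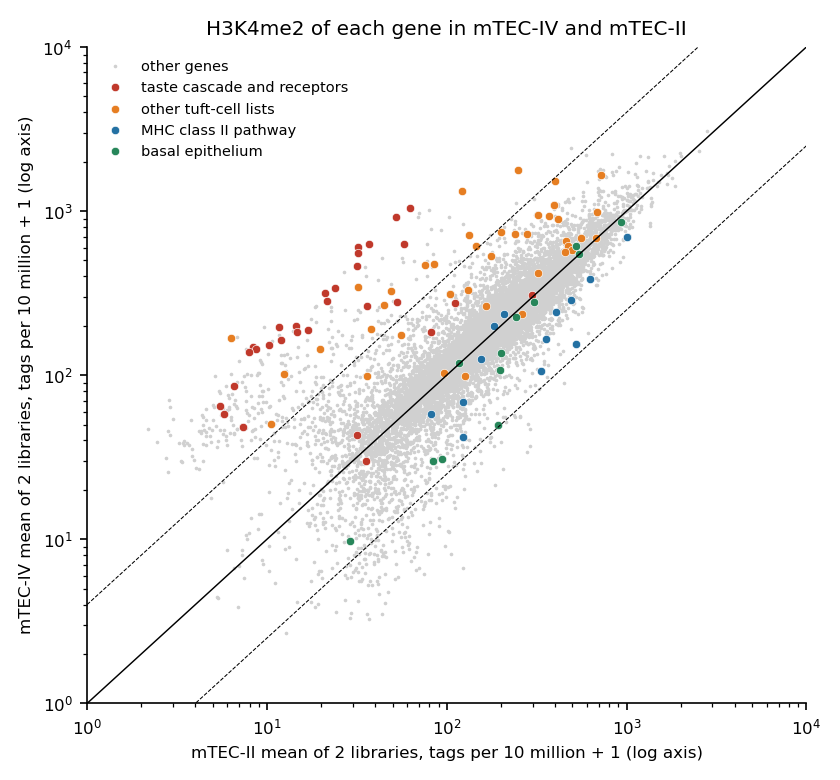
Mean H3K4me2 level of each gene (tags per 10000000 + 1, log axes) in mTEC-II on the horizontal and mTEC-IV on the vertical axis, each a mean of 2 libraries. The solid line marks equal levels and the dashed lines 4-fold. Most taste genes lie above the upper dashed line from low levels in mTEC-II, and the 9 called MHC class II genes lie below the solid line.

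Further large increases, with a mean of at least 100 in mTEC-IV, were at genes of little known role. Gm5662 had 185 and 152 against 4.54 and 7.03, 1700024G13Rik had 186 and 206 against 9.41 and 7.78, and 6030469F06Rik and Nrg3os changed by 4.21 and 4.15. Gm5662, 6030469F06Rik and Nrg3os stayed below 10 in every library outside mTEC-IV, so they too entered the fit only through mTEC-IV. Tas2r102 and Tas2r137, members of the bitter receptor list, also ranked here and changed by 4.17 and 4.13. Mir1961, a microRNA gene, changed by 4.25. The largest decreases were at Pglyrp2, an amidase that cleaves bacterial peptidoglycan, with 7.70 and 3.58 in mTEC-IV against 124 and 121 in mTEC-II, and at 4930556G01Rik with 7.15 and 7.17 against 109.98 and 99.96. Their changes were -4.29 ± 0.38 and -3.70 ± 0.27. Mylk3, a cardiac myosin kinase, changed by -3.23 and Adamts13, the protease that cleaves von Willebrand factor, by -3.09. Krt17, a keratin of basal and stressed epithelium, changed by -2.98 and Crnn, the cornulin of stratified epithelium, by -2.94. Serpina3i, Serpinb10, Mep1a, a metalloprotease of the gut and kidney brush border, Thap4 and Defb6, a beta-defensin, changed by -3.03, -2.75, -2.85, -2.67 and -2.66. Serpina3i belongs to a family of near-identical copies and is uncertain.

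The 8 higher peaks of smallest p all had their centres in introns, but several were wide enough to reach the start site as well. The first was a peak of 19857 bases centred in intron 1 of Mctp1, a calcium-binding membrane protein gene, at chr13:76676582-76696438 (mm9). It had 1786 and 1754 in mTEC-IV and 167 and 174 in mTEC-II, a change of 3.37 ± 0.11 (limma adjusted p = 4.0e-08). The second covered 16617 bases around a centre in intron 2 of Pik3cg, 5.88 kb from the start site. It had 1228 and 1169 against 141 and 149. The others were centred in introns of Ptpn6, Trpm5, Chdh, 4932413F04Rik, Pou2f3 and Dclk1. The Pou2f3 peak, 13751 bases centred in intron 1 with 972 and 1032 against 208 and 252, changed by 2.12. Chdh, choline dehydrogenase, had 886 and 967 against 274 and 276 at its peak, a change of 1.75. Together with the 8 lower ones below, these peaks were 5869 to 19857 bases wide.

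The 8 lower peaks of smallest p included the Foxn1 peak of 13639 bases centred in intron 1, at chr11:78187416-78201054 (mm9), and those of Serpina3i and Krt17. The lowest p belonged to a peak centred in intron 1 of Pfkfb3, an enzyme that promotes glycolysis, with 37.4 and 31.7 in mTEC-IV and 309 and 307 in mTEC-II, a change of -3.13 ± 0.14 (limma adjusted p = 7.2e-07). Icam1, an adhesion ligand for T cells, had 139 and 142 against 424 and 457 at its peak, a change of -1.64. The Skint2 peak changed by -1.67. Vmo1 changed by -2.62. A peak 33.7 kb upstream of Ly6e changed by -2.09, while the sum over the 5 Ly6e peaks was not called.

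Called peaks mostly had their centres away from start sites. A wide peak can still cover a start site that lies over 1 kb from its centre. Within 1 kb of a start site 7.62% of 11330 peaks were higher and 4.34% lower. From 1 to 10 kb the shares were 20.7% and 15.5%, from 10 to 50 kb 23.1% and 17.9%, and beyond 50 kb 27.5% and 20.6%. The median size of the change among called peaks was 0.64 within 1 kb and 1.96 beyond 50 kb. Start-site peaks were also stronger, with a median mTEC-II level of 143 against 41.1 beyond 50 kb. Of 1032 higher genes with both kinds of peak, 32.6% had a called start-site peak and 84.4% a called peak further away. For 484 lower genes the shares were 33.3% and 83.1%. The 2 kinds of share are not like for like, since any called peak further away counted and a gene can have several. These genes were also chosen by the sum of the same peaks, and shares over all genes with both kinds were not counted. Among genes named above, Nfatc1, Fyb, Plcg2, Tnfaip3, Traf1 and Ccl27a were called as sums but not from their peaks within 1 kb, where their changes were 0.09, 0.05, 0.17, 0.04, -0.22 and -0.13. Pdgfrb was not called there either, with a change of 1.23 against 1.78 for the sum. Epcam, Fezf2, Kit and Themis were called as sums but not from their strongest peak, with changes there of 0.27, -0.19, 0.31 and 1.17.

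**Figure D4:**
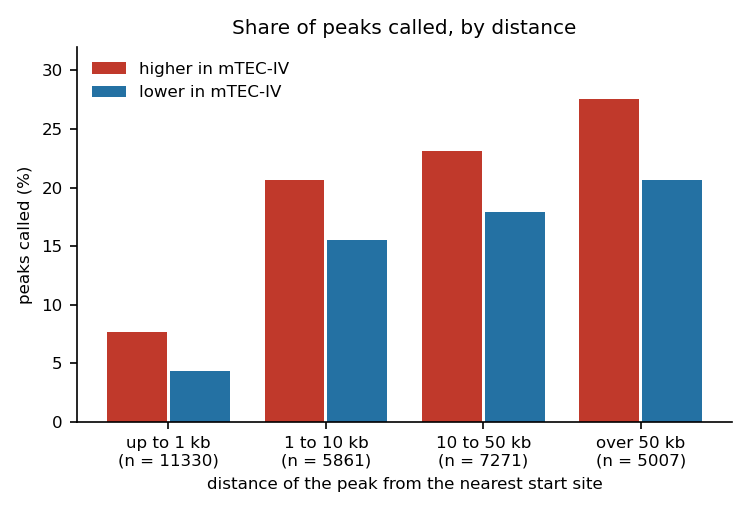
Share of merged peaks called higher (red) or lower (blue) in mTEC-IV, by distance of the peak centre from the nearest start site, with the number of peaks tested in each bin. The share called in either direction rises from 11.96% within 1 kb to 48.2% beyond 50 kb.

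Some genes carried many called peaks. Klf5, a factor of epithelial stem and barrier cells, had 12 of 13 peaks higher and none lower, spread from 18.3 kb upstream to 327 kb downstream of its start site. Its largest change was 3.96 at a peak 213 kb downstream, with 101 and 109 in mTEC-IV and 6.49 and 5.18 in mTEC-II. The strongest peak, 3.75 kb from the start site, had 619 and 626 against 355 and 362. All 7 peaks of Plk2, a kinase of the polo family, were higher, by 1.31 at the peak nearest the start site and by 2.75 to 4.09 at the 6 others. Cdkal1, Ano6, Lmo7 and Nfia had 8 higher peaks each. Ano6 also had 1 lower peak and Nfia 4. Among genes with most lower peaks Pvrl1, which encodes the adhesion molecule nectin 1, had 8 of 12. Nsmce2, Pvrl3, Med13l, Fmnl2 and Mir148a had 6 each, with 2 higher peaks at Med13l and 1 each at Fmnl2 and Mir148a.

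Higher and lower peaks occurred together at 716 genes, at 229 to 299 with any 1 of the 4 libraries left out, and at 1234 without mTEC-I replicate 2. They were counted over 6535 genes with at least 2 peaks tested. Of the 1845 with at least 2 called peaks 1129 had them all in 1 direction. At 448 of the 716 genes with peaks in both directions the gene's sum was not called, so the sum hid changes at single peaks. Nabp1, which encodes a single-stranded DNA-binding protein, had 4 higher and 4 lower peaks. The 4 higher ones lay 137 to 172 kb upstream of the start site, and the strongest of them had 416 and 424 in mTEC-IV and 25.3 and 35.5 in mTEC-II. The 4 lower ones lay between 62.2 kb upstream and 1.84 kb downstream, and the one furthest upstream had 4.40 and 11.95 against 80.5 and 72.2. Their changes were 3.76 and -3.21. Nedd1 had a peak 210 kb upstream with 243 and 269 against 12 and 9.26, and one 115 kb downstream with 9.35 and 5.97 against 49.96 and 55.5. Camk2d, a calcium-dependent kinase, had its largest rise at 75.0 kb downstream, with 83.6 and 82.4 against 3.57 and 4.44, and its largest fall 8.46 kb upstream, with 3.30 and 1.19 against 32.1 and 29.6. Tle4, a Groucho corepressor, had changes of 4.11 and -3.26 at its extreme peaks. At Trps1 the extremes were 2.82 and -4.74, and at Vwc2 5.08 and -3.62. These highest peaks of those 2 genes were not called after cyclic loess scaling, with changes of 1.34 (limma adjusted p = 0.067) and 2.11 (0.075).

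**Figure D5:**
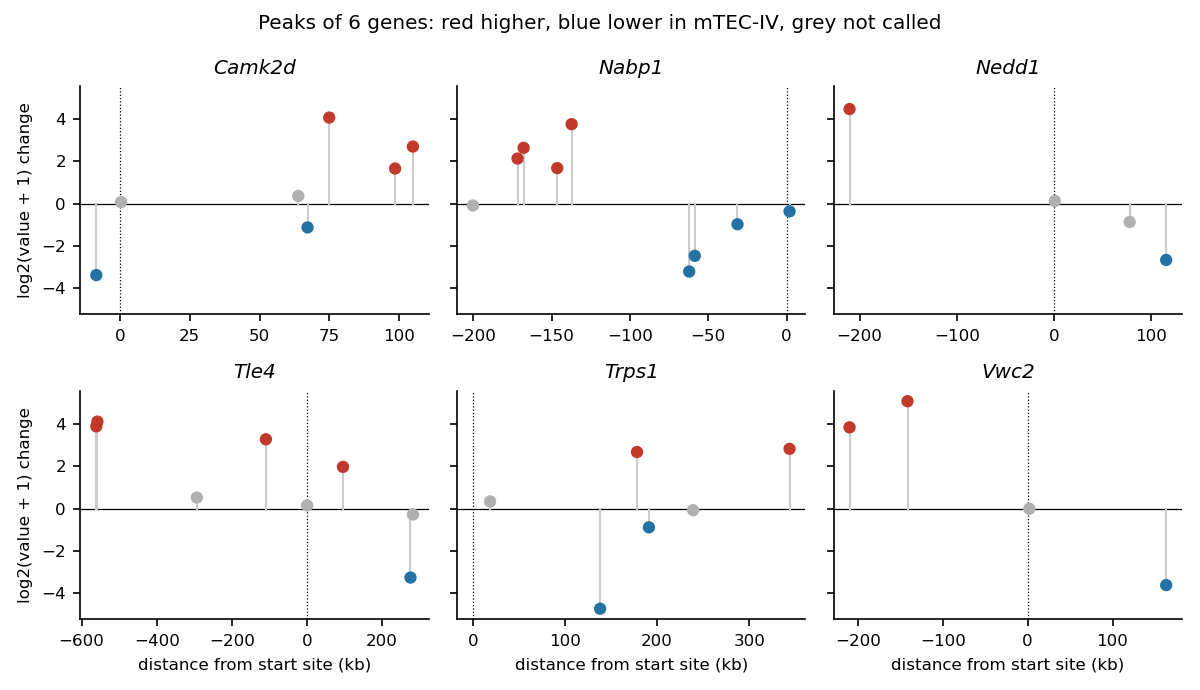
Change in H3K4me2 (mTEC-IV minus mTEC-II, log2(level + 1)) at each peak of 6 genes with peaks called in both directions, by distance of the peak from the start site in kb, where negative distances are upstream. Red points are higher, blue points lower and grey points not called. At Nabp1 the 4 higher peaks sit upstream of the 4 lower ones, and the peaks nearest to the start sites were not called at the other 5 genes.

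Levels in the other 2 populations were set beside both sides of the comparison. At the 5133 higher peaks the mean log2 level of mTEC-I was nearer to mTEC-II than to mTEC-IV in 82.9%, and that of mTEC-III in 80.2%. At the 3736 lower peaks the shares were 60.7% and 57.6%, and at peaks not called 51.4% and 51.6%. With calls from the 4 libraries alone, the shares at lower peaks were 54.6% and 52.5%, and those at higher peaks 75.9% and 75.3%. The median log2 level at higher peaks was 6.51 in mTEC-IV, 4.72 in mTEC-II, 4.51 in mTEC-I and 4.90 in mTEC-III. At lower peaks it was 4.37 in mTEC-IV and 5.94 in mTEC-II, with mTEC-I and mTEC-III at 5.43 each. These are descriptions, since the peaks were chosen by the mTEC-IV and mTEC-II levels.

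In the authors' deposited lists, made from both replicates combined, mTEC-IV had 22757 peaks and mTEC-II 23947. An overlap of at least 1 base was found for 80.3% of the mTEC-IV list and 75.4% of the mTEC-II list. Unshared peaks were weaker, with a median fold over control in the authors' deposited table of 12.4 against 18.4 for shared peaks in the mTEC-IV list, and 12.6 against 18.4 in the mTEC-II list. The direction at merged peaks from 1 list is largely fixed beforehand, since the lists were made from the same libraries as the levels. Of the 4422 merged peaks that came from the mTEC-IV list and not the mTEC-II list, 3183 were higher and 2 lower. Of 5781 from the mTEC-II list and not the mTEC-IV list, 2759 were lower and 5 higher. Of 17842 in both lists 1867 were higher and 726 lower, with a median size of change of 0.62 among those called.

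Among genes whose start-site peak was called and that have 1 promoter in the RefSeq table, the octamer was found in the 250 bases before the start site of 12 of 474 higher genes (2.53%), 6 of 270 lower genes (2.22%) and 59 of 5864 genes not called (1.01%). Its share over all 22862 promoters was 1.68%. The NF-kappaB motif was found in 0.633% of higher and 3.33% of lower promoters against 1.19% of those not called and 1.39% of all. The E box stood at 13.5%, 20% and 11.5%, and 12.7% of all. The ETS motif stood at 3.16%, 0.741% and 6.21%, and 2.90% of all. For the Y box the shares were 4.43%, 5.56% and 5.75%, and for the interferon element 2.53%, 3.33% and 2.61%. The RUNX motif stood at 2.95%, 5.93% and 3.04%, and the grainyhead motif at 1.69%, 2.22% and 1.48%. No test was made on these shares, and overlaps between motifs were not removed.

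Of 398 microRNA genes 103 were higher and 72 lower, where 16.4% of all genes were higher and 9.43% lower. A pair of higher ones is shown, chosen after their values were seen. Mir1961 had 142 and 145 in mTEC-IV and 7.79 and 5.55 in mTEC-II. Mir32 had 1012 and 941 against 69.1 and 70.0, a change of 3.79 ± 0.23. Their mature sequences from RefSeq, build GRCm38.p6, are given 5′ to 3′ with the seed, bases 2 to 8, in capitals. The seeds differ, and the mark at a gene is not a measure of the microRNA.
mmu-miR-1961, chr5:92788465-92788481, minus strand: uGAGGUAGuaguuagaa
mmu-miR-32-5p, chr4:56895272-56895293, minus strand: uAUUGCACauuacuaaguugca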

How the data were processed

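The authors deposited a table of 29472 merged H3K4me2 peaks with a signal for each of 8 libraries, scaled to 10000000 tags and annotated to the nearest start site with HOMER on build mm9, per the file headers. They also deposited peak lists of replicates combined, with a fold and a p-value against control for each peak, per the file headers, of which only the fold is used here. The submitters' processing notes name bcl2fastq 2.15.0.4 and Picard 1.108. Aligner, duplicate handling and the settings of the replicate peak comparison: not given in the sources used here. Signal values move in steps of 0.5 tag, and 2 mitochondrial peaks were left out.

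Levels were tested as log2(signal + 1) with limma 3.58.1 (R 4.3.3) and a mean-dependent prior, over all 8 libraries, for peaks or genes at 10 or more in at least 2 libraries, with Benjamini-Hochberg adjustment at 0.05. A gene is the sum of its peaks. In count tests, run only as alternatives (edgeR 4.0.16, DESeq2 1.42.0, voom), tags were recovered from the signal. One tag was worth 1.10 and 1.19 in the mTEC-IV libraries and 0.649 and 0.740 in the mTEC-II libraries, and intervals and floors would cover counting error only. On simulated data 38% of 2-fold and 100% of 4-fold changes were recovered among 29389 peaks, and 74% and 100% among 15728 genes. The simulation gave all features and libraries the same dispersion, so these rates need not hold for the real data. There the standard deviation of the log2 difference between replicates was 0.26 in mTEC-II and 0.84 in mTEC-I. Alternatives were the pseudocount, filter, scaling, test, libraries left out, replicate block, and the peaks that make up a gene. The members, lists and tests were chosen with earlier results of these data known. Named were up to 8 genes of each list, called ones first by p, the 12 genes of largest change in each direction with a mean of at least 100, the 8 peaks of smallest p in each direction, the 6 genes of each direction with most called peaks, and 6 with opposite peaks. Counts of each list under other settings were added after seeing the data.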

Additional observations from a re-analysis of the deposited data

How the results depend on the processing

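Of 138 genes named with values, 132 were called. Under every alternative that gave a result for them, 119 kept their call or lack of one, and their direction. From peaks within 1 kb, 42 named genes kept theirs, 7 lost their call, and the rest had no result. From peaks within 20 kb, 124 kept theirs, 1 lost its call, and the rest had no result. Peaks higher in mTEC-IV numbered 3149 after cyclic loess and 8278 with the 4 libraries alone. Peaks lower numbered 6186 with edgeR, 6832 with voom and 5743 with the 4 libraries alone. Genes higher numbered 4218 with the 4 libraries alone, 551 from peaks within 1 kb and 1607 from the strongest peak of each gene. Genes lower numbered 2443 with equal totals, 2822 with edgeR, 2254 with DESeq2, 3129 with voom, 2409 with the 4 libraries alone and 336 from peaks within 1 kb. Genes with opposite peaks numbered 1231 with edgeR, 1428 with voom, 1389 with the 4 libraries alone and 1242 without mTEC-I. Over fits that leave out 1 library, mTEC-I replicate 2 included, the ranges were 2413 to 7442 higher peaks, 1885 to 5368 lower peaks, 1556 to 3647 higher genes, 811 to 2118 lower genes and 229 to 1234 genes with opposite peaks, the upper ends without mTEC-I replicate 2. Without an mTEC-IV or mTEC-II library the upper ends were 2709, 2504, 1633, 973 and 299. The cause of these shifts was not tested. Itpr3, not called, turned from 0.04 to -0.0915 with equal totals, -0.0322 with TMM, -0.0104 with RLE, -0.0361 with cyclic loess, -0.0372 with edgeR, -0.0341 with DESeq2 and -0.0376 with voom.

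With the replicate number as a block 5031 peaks were higher and 3663 lower, and 2561 genes higher and 1453 lower. Deviations of same-numbered libraries correlated between -0.01 and 0.02 across peaks. Such values cannot show whether these libraries shared animals or a preparation. Overlap of the deposited lists fell to 75.3% of mTEC-IV and 70.7% of mTEC-II peaks when 0.5 of the shorter peak had to overlap, and to 74.4% and 71.4% for peaks of fold 8 or more. Depth limits low levels: 3 tags equal 3.30 and 3.58 in mTEC-IV and 1.95 and 2.22 in mTEC-II, so levels near these in Pglyrp2, Il27, Camk2d or Trps1 carry few tags. The mTEC-II levels of Siglecf, Gm5662 and Nrg3os, from 4.44 to 7.03, carry few tags too.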

Other observations

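Calls were also counted by chromosome. Of 551 X peaks 7.99% were called, against 30.5% of 28918 autosomal peaks. Within 1 kb of a start site the shares were 3.06% and 12.3%, and beyond 1 kb they were 17.3% and 41.7%. X peaks lay within 1 kb of a start site in 65.3% of cases and autosomal peaks in 37.9%. The median standard error within 1 kb was 0.204 on the X and 0.145 on the autosomes, with median mTEC-IV levels of 75.9 and 153. Beyond 1 kb the standard errors were 0.252 and 0.288. With edgeR the shares called were 14.9% and 43.7%. The difference between the chromosomes was not tested.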
